A study of Drosophila melanogaster with 30 samples.

Results

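The genes described here are 34 *Drosophila melanogaster* genes of the cell cycle and of DNA replication, taken as a list of gene names: cyclins and their kinases, the E2F and retinoblastoma regulators of S phase entry, the proteins that license and fire replication origins, enzymes of DNA synthesis and the mitotic machinery. Of these, 32 were matched by symbol or synonym to the 17713 features of the count table, and all 32 passed the filter on low counts in every comparison. *Orc1* and *Mcm3* were not matched and were not analysed here.

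The 30 RNA-seq libraries were each made from 5 pooled whole larvae, late in the third instar. There were 6 groups of 5 libraries: *HR3-RNAi* larvae refed with cholesterol or kept on low cholesterol, *TOR-RNAi* larvae refed or on low cholesterol, and controls refed or on low cholesterol. Every larva carried *Tub-GAL80TS* and *Tub-GAL4*, a ubiquitous driver that is silent at 18 °C and active at 29 °C. The knockdown animals also carried 1 copy of *UAS-Hr3-RNAi* or *UAS-Tor-RNAi*, against the nuclear receptor HR3 or the growth kinase TOR, and controls carried the driver alone. All groups were reared at 18 °C and then spent 9 h at 29 °C on standard food. They were next moved to low-cholesterol food, still at 29 °C, for 10 h by the labels and 11 h by the methods. After that the refed groups were given 80 µg/mL cholesterol for 10 h, and the low-cholesterol groups stayed at 1.2 µg/mL for the same time. By the methods, 29 °C was kept through this time too. The study asked how cholesterol acts on TOR-driven growth and whether HR3 is needed for it.

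Cell cycle genes act in a fixed order. Cyclin D with Cdk4 and Cyclin E with Cdk2 release E2F from Rbf in G1, origins loaded with the Mcm helicase are fired in S phase, and Cdk1 with Cyclins A, B and B3 drives mitosis. Most larval tissues, such as fat body, gut and salivary gland, grow by endocycles, in which DNA is replicated without division, whereas imaginal discs, neuroblasts and the gonads divide. TOR signaling is known to sustain endoreplication in fed larvae. In whole larvae, fewer cells of a type and less RNA per cell cannot be told apart.

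Libraries held between 19744564 and 33510753 counts. *Tor*, the targeted kinase gene (listed as *mTor*), was at 24.7 to 35.7 CPM, counts scaled to the total of the library, in refed *TOR-RNAi* larvae, against 45.3 to 53.1 CPM in refed controls (p = 0.00794 in a two-sided exact permutation test, which cannot go lower with 5 against 5). On low cholesterol it was at 25.1 to 47.3 CPM in *TOR-RNAi* larvae, against 48.4 to 53.9 CPM in controls (exact p = 0.00794). *Hr3* had 2 to 17 counts per library, and no difference was detectable between *HR3-RNAi* larvae and controls after refeeding (exact permutation p = 0.968) or on low cholesterol (exact p = 0.516). Libraries differed in their testis level: the summed level of 17 testis markers lay between 15.9 and 744 CPM. It was lowest in 1 low-cholesterol *TOR-RNAi* library (replicate 1) and in 1 refed control library (replicate 2, 20.5 CPM), which also had the lowest levels of the male-specific *roX1* and *roX2*. Glue genes, which salivary glands express late in the third instar, were also uneven: the summed level of 6 of them lay between 0.0392 and 2155 CPM over the libraries. No batch is named in the labels.

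The 32 genes were all expressed, at levels that differed 26.2-fold per length. On the FPKM scale, which divides by transcript length, the median over libraries was 7.66 for the median member, against 2.42 for the median of all features with a count. The 2 subunits of ribonucleotide reductase and the replication clamp were among the most abundant: *RnrS*, the small subunit, had a median of 49.3 FPKM, *PCNA* 35.9 FPKM and *RnrL*, the large subunit, 16.6 FPKM. *geminin*, the inhibitor of origin licensing, had 21.2 FPKM, *Dp*, the partner of E2F, 19.7 FPKM, and *E2f1*, its activator form, 15.1 FPKM. The least abundant members were *Mcm7*, a helicase subunit, at 1.88 FPKM, *CycE* at 2.54 FPKM, *Orc2*, a subunit of the origin recognition complex, at 2.59 FPKM and the spindle checkpoint kinase gene *BubR1* at 2.75 FPKM. For *Mcm7*, 81.7% of the exonic bases are shared with an annotated antisense RNA, and whether the counting used strand is not stated. How reads in the shared bases were counted is not known, so its level and the 26.2-fold range are uncertain. Every member had at least 45 counts in every library.

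Replicates of a group differed together across the members. After subtraction of group means from log2 CPM, the median correlation over the 496 pairs of members was 0.65, and 72.2% of pairs exceeded 0.5. Over the 9332 features with at least 10 counts in every library, the median was 0.09 and 9.11% of pairs exceeded 0.5. These values describe 30 libraries that share their depth and composition, and genes are not independent replicates. *CycB* and *Incenp*, a subunit of the chromosomal passenger complex, were the closest pair (r = 0.96), followed by *Mcm2* and *Mcm6* (r = 0.95) and by *CycA* and *CycB* (r = 0.93). *RnrS* followed the others least (median r = 0.17), then *CycD* (0.24) and *Cdk4* (0.30). The spread also differed between members: the SD within groups was 0.11 log2 units for *CycD* and *E2f1*, 0.21 for the median member and 0.41 for *aurA*, the spindle kinase gene.

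The shared variation went with markers of dividing tissue. The relation of each member with the summed level of 8 imaginal disc genes and of 17 testis genes was computed within groups, 64 relations in all. With the imaginal disc level, 28 of 32 members had an adjusted permutation p under 0.05 for Pearson's r, all positive. By the rank correlation rho, *Cdk4*, *dup*, *PCNA*, *Orc2*, *aurA* and *Mcm7* of these did not pass (permutation adjusted p from 0.051 to 0.0799). *CycD* passed by rho alone (permutation adjusted p = 0.0106). *CycB* had r = 0.93 and rho = 0.84 (permutation p = 1e-05 each, adjusted p = 9.14e-05 and 0.000128, where 1e-05 is the lowest value that the resampling allows), and r was 0.90 without the 2 libraries farthest from the median. As a description of how common such relations were, r with the disc level exceeded 0.5 for 27 of 32 members (84.4%), with a median of 0.71. It did so for 22.1% of 9324 features with at least 10 counts in every library, with a median of 0.23. *RnrS* had r = 0.02 (permutation adjusted p = 0.929). With the testis level, 10 members passed, all positive, led by *aurA* (r = 0.85, rho = 0.80, permutation p = 1e-05 for both, adjusted p = 9.14e-05 and 0.000128; r = 0.81 without the 2 farthest libraries) and by *E2f2*, the repressor E2F (r = 0.70, rho = 0.73, permutation adjusted p = 0.000527 and 0.00032; r = 0.62 without the 2 farthest). Of these 10, which passed by r, *Rbf*, *dup*, *CycA*, *CycB* and *Cdk1* did not pass by rho (permutation adjusted p = 0.13, 0.12, 0.0748, 0.133 and 0.0878). With the testis level r exceeded 0.5 for 10 members (31.3%), with a median of 0.28, and for 16.2% of 9330 features, with a median of 0.18. The low-cholesterol *TOR-RNAi* library with the lowest testis level also had the lowest *aurA*, at 2.23 CPM, and the lowest *CycB*, at 15.8 CPM.

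**Figure D1:**
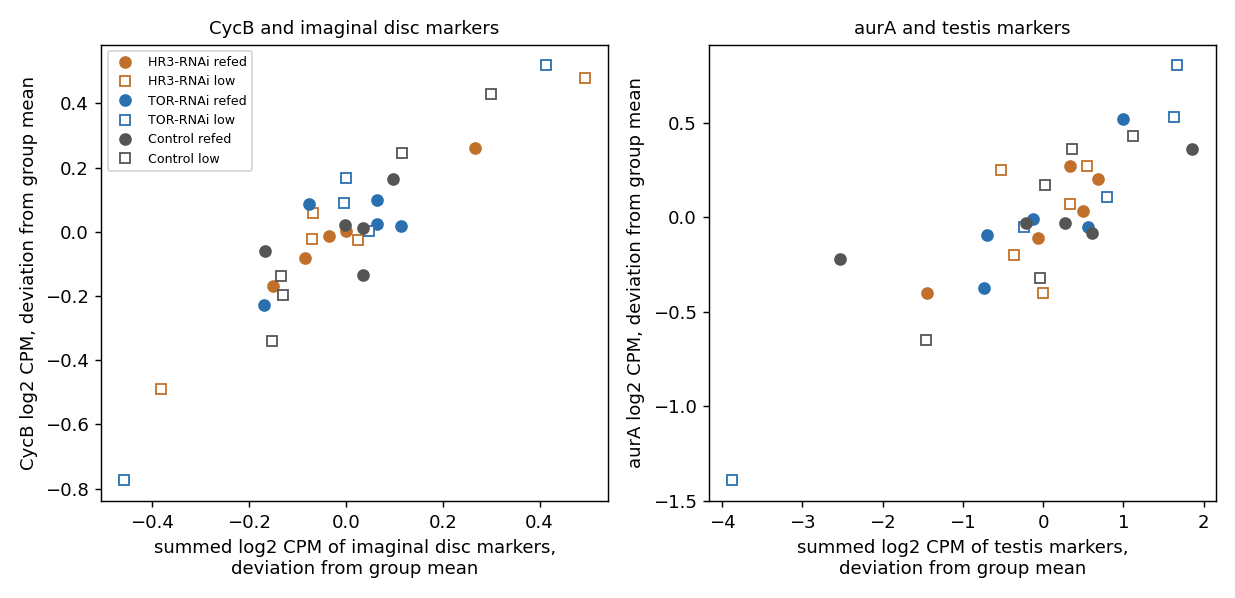
Left, log2 CPM of *CycB* against the summed log2 CPM of imaginal disc markers; right, *aurA* against testis markers. Each point is 1 of the 30 libraries, given as its deviation from its group mean; r was 0.93 for *CycB* and 0.85 for *aurA*, and 1 low-cholesterol *TOR-RNAi* library lies lowest in both plots.

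On refeeding with cholesterol, none of the 32 members passed the test in any of the 3 genotypes. Genes were tested by the quasi-likelihood method of edgeR, p-values were adjusted over all features by the Benjamini-Hochberg procedure, and an adjusted p under 0.05 was counted as changed. In *HR3-RNAi* larvae 0 of 32 members were called, where 3.44% of all features were. In *TOR-RNAi* larvae 0 members were called, where 0.562% of features were, and in controls 0 members, where 3.83% of features were. DESeq2's Wald test also called 0 members in each genotype. At an unadjusted p under 0.05, edgeR gave 2 members in *HR3-RNAi* larvae, 0 in *TOR-RNAi* larvae and 1 in controls, against 14.6%, 8.23% and 14.9% of all features.

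The intervals, taken gene by gene and not adjusted for the number of members, show how large a change in the whole-larva level could have been missed. In each genotype, the 95% intervals of all 32 members lay within a 2-fold change in either direction. They lay within a 1.5-fold change for 32 members in *HR3-RNAi* larvae, 29 in *TOR-RNAi* larvae and 30 in controls. The median log2 fold change of the members, refed over low cholesterol, was 0.11 in *HR3-RNAi* larvae, -0.05 in *TOR-RNAi* larvae and -0.05 in controls, against -0.00 for all tested features in each.

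**Figure D2:**
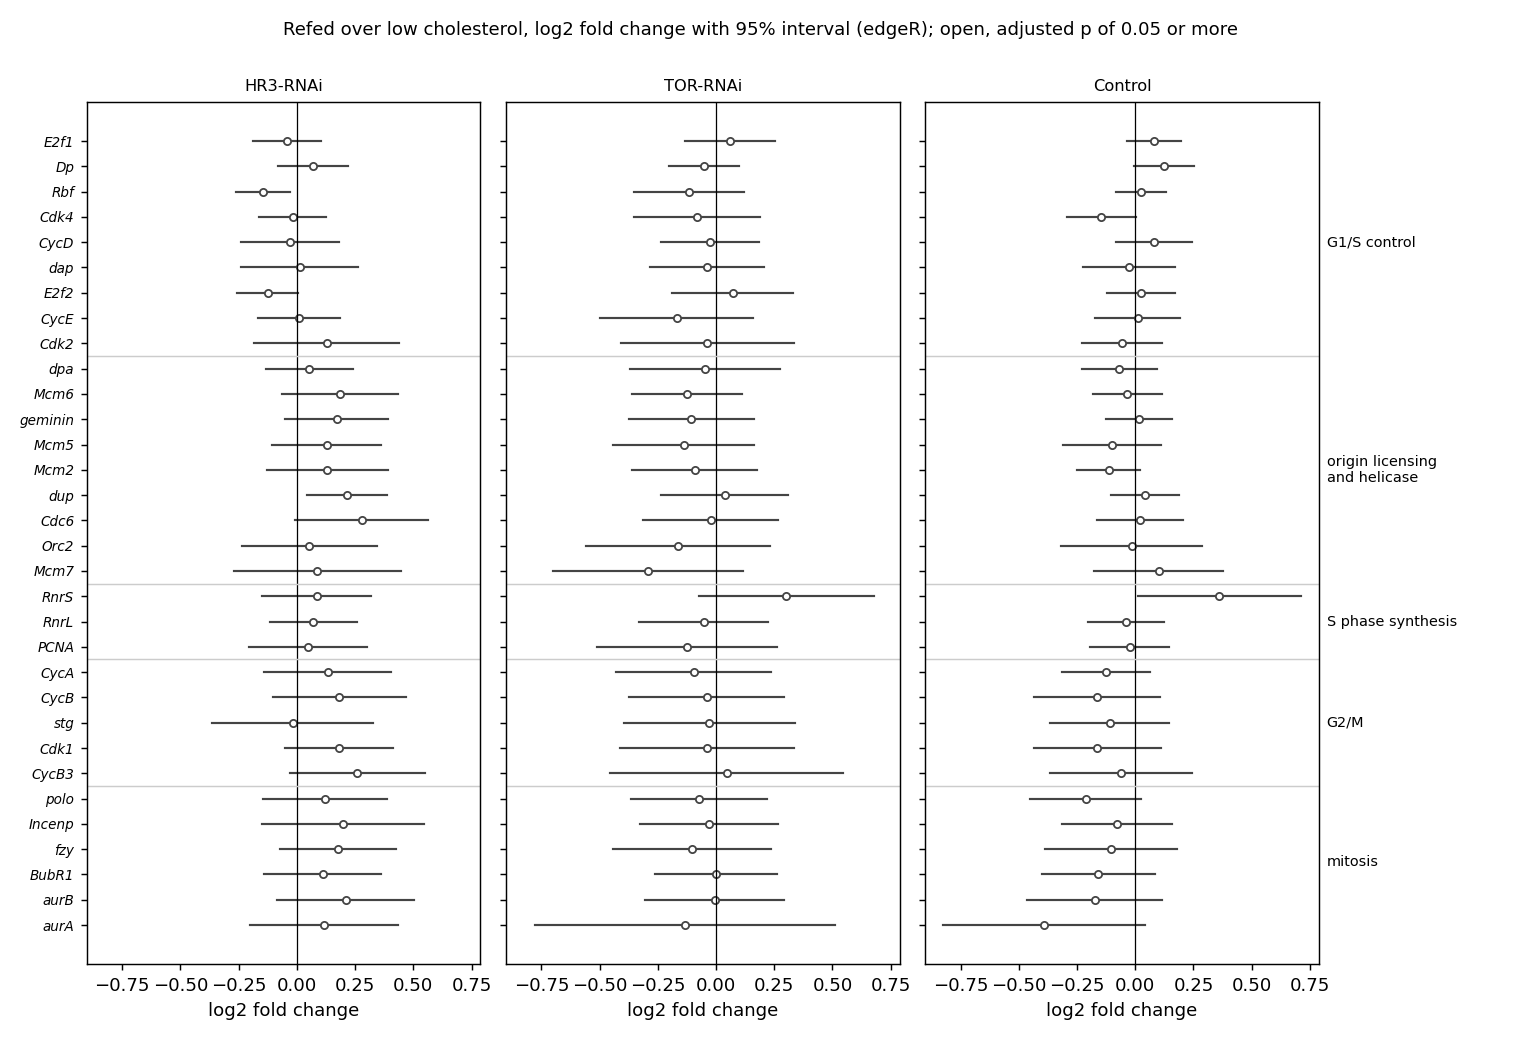
Log2 fold change of refed over low-cholesterol larvae for each of the 32 members, by role, in *HR3-RNAi* larvae, *TOR-RNAi* larvae and controls (n = 5 libraries per group). Points are edgeR estimates and lines their 95% intervals; every point is open, since no member had an adjusted p under 0.05.

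Of the enzymes of DNA synthesis, *RnrS* had the largest value on refeeding in controls. Its level was 113, 87.6, 90.8, 62.9 and 110 CPM in refed controls, against 60.0, 73.3, 88.9, 74.0 and 82.9 CPM in low-cholesterol controls. In *TOR-RNAi* larvae it was 77.0, 86.2, 53.2, 82.1 and 80.9 CPM after refeeding, against 59.5, 42.9, 65.4, 65.6 and 69.6 CPM on low cholesterol. The diets overlapped in both genotypes, through 2 refed libraries in controls and 1 in *TOR-RNAi* larvae. The log2 fold change was 0.36 in controls (SE 0.16, unadjusted p = 0.0447, adjusted p = 0.321 from edgeR), 0.30 in *TOR-RNAi* larvae (SE 0.17, adjusted p = 0.728) and 0.09 in *HR3-RNAi* larvae (SE 0.11, adjusted p = 0.808). *PCNA* and *RnrL* had values between -0.12 and 0.07 in the 3 genotypes.

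Members of the G2/M and mitosis groups had negative values in controls and mostly positive ones in *HR3-RNAi* larvae. In refed against low-cholesterol controls, 11 of 11 were negative, with medians of -0.13 for the 5 G2/M genes and -0.17 for the 6 mitosis genes. In *HR3-RNAi* larvae 10 of 11 were positive, with medians of 0.18 and 0.15, and in *TOR-RNAi* larvae 10 of 11 were negative, with medians of -0.04 and -0.05. None of these values passed the test. Disc and neuroblast markers had medians of 0.28 and 0.29 in *HR3-RNAi* larvae, 0.16 and 0.01 in *TOR-RNAi* larvae, and -0.06 and -0.16 in controls, and the testis markers had medians of -0.14, -0.18 and -0.89. The summed level of the glue genes ranged over 3.91 to 202 CPM in refed and 0.109 to 2155 CPM in low-cholesterol *HR3-RNAi* larvae. It ranged over 0.310 to 875 CPM in refed and 0.0392 to 578 CPM in low-cholesterol *TOR-RNAi* larvae, and 1.11 to 630 CPM in refed and 0.537 to 18.1 CPM in low-cholesterol controls. Of the 6 glue genes, 5 were tested on refeeding in *HR3-RNAi* larvae, 6 in *TOR-RNAi* larvae and 2 in controls, with 0 called. Their log2 fold changes were -3.91 to -1.33, 0.78 to 1.77, and 4.33 and 4.43, in that order. The 2 in controls had an unadjusted p under 0.05 from edgeR. The part of these tissues in the members' values was not tested beyond the covariate fit. With the imaginal disc level as a covariate, an alternative chosen after seeing the data, the median of all members was 0.04 in *HR3-RNAi* larvae, -0.22 in *TOR-RNAi* larvae and 0.00 in controls.

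Among single members, *dup*, which encodes the licensing factor Cdt1, and *Rbf*, the retinoblastoma homolog, had the smallest p in *HR3-RNAi* larvae. *dup* was at 18.2, 18.2, 18.3, 23.4 and 19.9 CPM in refed *HR3-RNAi* larvae, against 18.2, 18.0, 15.8, 18.4 and 15.0 CPM on low cholesterol, with a log2 fold change of 0.22 (SE 0.0782, unadjusted p = 0.0178, adjusted p = 0.198 from edgeR). *Rbf* was at 40.0, 46.0, 44.9, 46.6 and 46.7 CPM in refed *HR3-RNAi* larvae, against 50.8, 56.6, 47.5, 50.4 and 45.7 CPM on low cholesterol, with a log2 fold change of -0.15 (SE 0.0526, adjusted p = 0.198). The refed and low-cholesterol libraries overlapped for both genes. Single-library CPM ranges of refed and low-cholesterol groups were apart for 0 members in *HR3-RNAi* larvae and 0 in *TOR-RNAi* larvae, where 6.10% and 2.51% of features were apart, and for 1 member, *Cdk4*, in controls, where 5.25% were. For *Cdk4*, the kinase of Cyclin D, this was a log2 fold change of -0.15 (SE 0.0668, adjusted p = 0.345 from edgeR).

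The response to refeeding was then compared between genotypes in 1 fit of all 30 libraries. For *HR3-RNAi* against control, the interaction called 0 members and 0% of features, and at an unadjusted p under 0.05 it gave 0 members and 6.72% of features. For *TOR-RNAi* it called 0 members and 0% of features, and 0 members and 9.12% of features at an unadjusted p under 0.05. DESeq2's Wald test called 0 members in either, and 37 and 114 features. For *HR3-RNAi* the differences in response had a median of 0.32 over the 5 G2/M genes and 0.31 over the 6 mitosis genes, against 0.03 over all features, and for *TOR-RNAi* of 0.12 and 0.17, against 0.06. Disc and neuroblast markers had medians of 0.27 and 0.46 for *HR3-RNAi*, and of 0.23 and 0.07 for *TOR-RNAi*. The 17 testis markers were all positive in both interactions, with medians of 0.73 for *HR3-RNAi* and 0.73 for *TOR-RNAi*, as were the 2 *roX* genes, with medians of 0.97 and 0.91, and 0 of these were called. The part of these tissues in the members' differences was not tested beyond the covariate fits. Both interactions use the same controls. The member with the smallest p for *HR3-RNAi* was *aurB*, the kinase of the chromosomal passenger complex. It was at 10.3, 9.01, 9.81, 12.7 and 9.39 CPM in refed *HR3-RNAi* larvae, against 10.7, 10.5, 6.35, 8.07 and 9.33 CPM in low-cholesterol *HR3-RNAi* larvae. In controls it was at 9.52, 9.74, 8.22, 7.97 and 6.18 CPM after refeeding, against 12.1, 8.21, 9.74, 9.65 and 9.71 CPM on low cholesterol. All 4 groups overlapped. The difference between the log2 fold changes was 0.39 (SE 0.19, 95% interval -0.00 to 0.78, unadjusted p = 0.0527, adjusted p = 0.75 from edgeR). The interval of the median-width member extended 0.35 log2 units to either side, so a smaller difference in response was not detectable for most members. Since calls were also adjusted over all features, larger differences could be missed too. The largest among the members for *HR3-RNAi*, 0.51, was not called.

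Between *HR3-RNAi* larvae and controls, no member passed the test over both diets in the fit of all libraries. Of 32 members 0 were called, where 7.53% of features were, and 3 had an unadjusted p under 0.05, where 20.3% of features did. DESeq2 also called 0. The 3 were *RnrL* (log2 fold change -0.20, SE 0.0728, adjusted p = 0.104 from edgeR), *Mcm5* (-0.22, SE 0.0844, adjusted p = 0.118) and *Rbf* (-0.15, SE 0.0550, adjusted p = 0.115). When the *TOR-RNAi* libraries were left out of the fit, these 3 were called, all lower in *HR3-RNAi* larvae (adjusted p = 0.0277 for *RnrL*, 0.0478 for *Mcm5* and 0.00754 for *Rbf*), where that fit called 11.4% of all features, 7.02% as lower. Leaving out low-cholesterol control 1 gave 2 calls, and leaving out low-cholesterol *HR3-RNAi* 1 or 2, refed *TOR-RNAi* 3 or 4, or low-cholesterol *TOR-RNAi* 5 gave 1 each, of *Rbf* or *RnrL*. All 9 licensing and helicase genes had negative values, with a median of -0.10, and all 6 mitosis genes positive ones, with a median of 0.09, against 0.03 for all features. All 17 testis markers were positive, with a median of 0.45 and 1 called. Disc, neuroblast and glue genes had medians of 0.07, 0.28 and 2.84, with 0 called. On low cholesterol 1 of the 6 glue genes was called higher in *HR3-RNAi* larvae, where their median was 6.82. The part of these tissues was not tested beyond the covariate fits. Within diets, edgeR called 0 members on low cholesterol (2.61% of features) and 0 after refeeding (3.97% of features), and DESeq2 called 0 in both. At an unadjusted p under 0.05 edgeR gave 2 members on low cholesterol and 5 after refeeding, against 12.5% and 16.8% of features.

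After refeeding, mitotic cyclins and kinases had positive values in *HR3-RNAi* larvae over controls, none of which passed the test in the fit of all libraries. *Cdk1*, the mitotic kinase gene, was at 16.9, 16.0, 19.0, 22.2 and 17.0 CPM in refed *HR3-RNAi* larvae, against 15.4, 15.7, 14.1, 14.0 and 12.1 CPM in refed controls, and the groups did not overlap. Its log2 fold change was 0.32 (SE 0.14, adjusted p = 0.227 from edgeR). The CPM ranges were apart for 7 of 32 members, where 9.17% of features were: *CycA*, *CycB3*, *Cdk1*, *polo*, *Incenp* and *Cdk4* lay above the controls and *Rbf* below them. On low cholesterol they were apart for 0 members, where 4.17% of features were. The 5 G2/M genes had a median of 0.28 and the 6 mitosis genes of 0.27, against 0.03 for all features. A fit of these 10 libraries alone called 11% of all features and 4 members, a share close to that of all features: *CycA* (log2 fold change 0.25, adjusted p = 0.0302), *CycB* (0.26, adjusted p = 0.0295) and *CycB3* (0.27, adjusted p = 0.0385) higher, and *Rbf* (-0.25, adjusted p = 0.00154) lower in *HR3-RNAi* larvae. In the fit of all libraries, *Rbf* was called on leaving out low-cholesterol control 1, refed *TOR-RNAi* 3 or 4, or low-cholesterol *TOR-RNAi* 1 or 5, with values from -0.25 to -0.23. Disc markers had a median of 0.31, neuroblast markers of 0.56 and testis markers of 0.80 in this comparison, with 0 of 8, 0 of 5 and 0 of 17 called, and 0 of the 6 glue genes were called. With the imaginal disc level as a covariate, the medians of the G2/M and mitosis genes were 0.09 and 0.12, while *Rbf* had a value of -0.24.

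In *TOR-RNAi* larvae 2 of the 32 members, *RnrL* and *Cdk2*, were lower than in controls over both diets and 0 were higher, by edgeR's quasi-likelihood test. Among all features 20.9% were called, 12.2% lower and 8.72% higher, so the share of members called was below that of all features. At an unadjusted p under 0.05 there were 10 members, all with negative values, where 33.1% of features passed. The median log2 fold change of the members was -0.10, against 0.03 for all features. With single libraries left out, 2180 to 3064 features were called, and the count of members lay between 2 and 7. It reached 7 without refed *TOR-RNAi* replicate 4, 6 without refed *TOR-RNAi* 1, low-cholesterol *TOR-RNAi* 4 or 5, or refed control 4, 5 without low-cholesterol control 2, and 4 without low-cholesterol control 1, low-cholesterol *HR3-RNAi* 1 or 3, refed *HR3-RNAi* 4 or low-cholesterol *TOR-RNAi* 3. *RnrL* and *Cdk2* were called in all 30 of these fits.

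*RnrL* encodes the large subunit of ribonucleotide reductase, which makes deoxyribonucleotides for DNA synthesis (FBgn0011703, chromosome 2L from 10325026 to 10327943, minus strand, Ensembl BDGP6 annotation). It was at 43.9, 35.4, 33.5, 44.3 and 35.9 CPM in refed *TOR-RNAi* larvae, against 42.2, 49.3, 45.3, 43.8 and 45.9 CPM in refed controls. On low cholesterol it was at 27.2, 34.9, 40.8, 49.9 and 46.3 CPM in *TOR-RNAi* larvae, against 44.7, 45.6, 48.0, 54.2 and 51.0 CPM in controls. In both diets the 2 genotypes overlapped, and 2 of the refed and 3 of the low-cholesterol *TOR-RNAi* libraries lay above 40 CPM. Over both diets it fell by 17.8% in *TOR-RNAi* larvae (log2 fold change -0.28, SE 0.0729, adjusted p = 0.00632 from edgeR). In the 30 fits that lacked 1 library each, the value stayed between -0.32 and -0.25 and the adjusted p at or below 0.0161. Of the 6 glue genes 2 were called higher in *TOR-RNAi* larvae, and the disc and neuroblast markers had medians of 0.04 and 0.15, with 0 called. The part of these tissues in the difference was not tested beyond the covariate fits given further on.

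*Cdk2*, the kinase that acts with Cyclin E at S phase entry (FBgn0004107, chromosome 3R from 20735623 to 20738414, plus strand), was at 9.43, 8.06, 5.35, 9.55 and 9.85 CPM in refed *TOR-RNAi* larvae. Refed controls had 11.1, 10.4, 10.3, 10.1 and 9.93 CPM, so that every *TOR-RNAi* library lay below every control. On low cholesterol the levels were 7.20, 7.99, 8.56, 10.7 and 8.58 CPM in *TOR-RNAi* larvae, against 11.7, 9.34, 12.4, 10.9 and 12.3 CPM in controls, overlapping through 1 library on either side. Over both diets *Cdk2* fell by 22.2% (log2 fold change -0.36, SE 0.10, adjusted p = 0.0108 from edgeR), and the value lay between -0.40 and -0.30 with each library left out. Of the exonic bases of *Cdk2*, 43.9% are shared with *CG17267* on the opposite strand. Whether the counting used strand is not stated. *CG17267* had 0 to 13 counts per library, against 143 to 377 for *Cdk2*. These counts do not show how reads in the shared bases were assigned. *Cdk2* was the only member apart between the genotypes after refeeding, where 8.78% of features were, and 0 members were apart on low cholesterol, where 4.26% were.

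**Figure D3:**
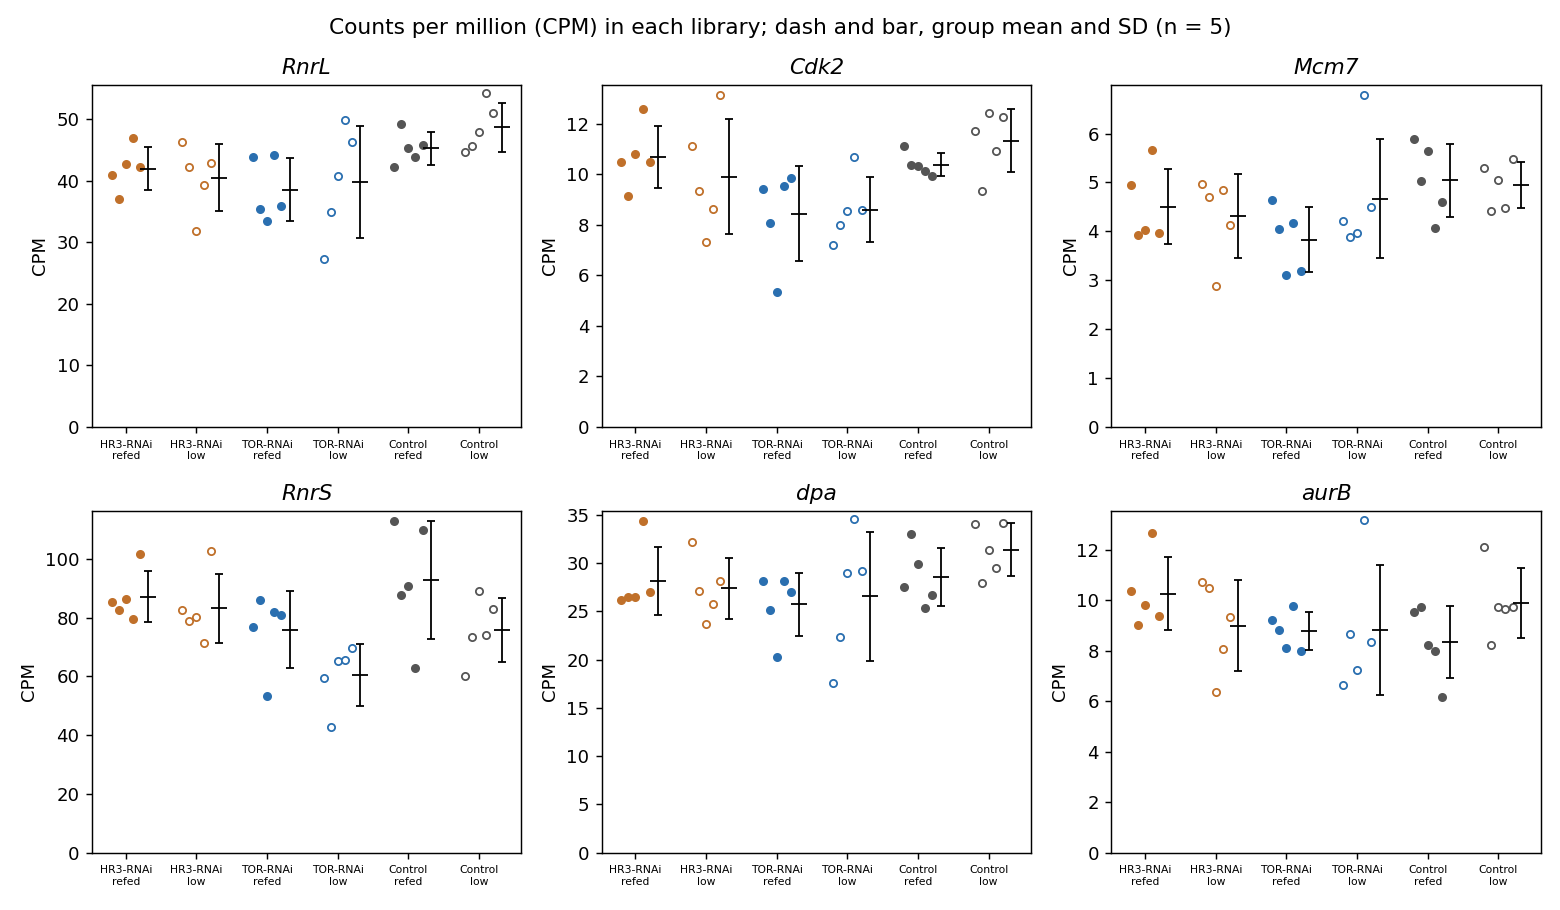
CPM of *RnrL*, *Cdk2*, *Mcm7*, *RnrS*, *dpa* and *aurB* in each of the 30 libraries (filled, refed; open, low cholesterol), with the group mean and SD (n = 5). *RnrL* and *Cdk2* were lower in *TOR-RNAi* larvae than in controls over both diets, by 17.8% and 22.2%; the other 4 genes did not pass the test over both diets.

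The partners of these genes showed smaller or less certain differences. *RnrS* had a log2 fold change of -0.32 (SE 0.12, adjusted p = 0.0535 from edgeR) and *PCNA* of -0.25 (SE 0.0984, adjusted p = 0.0742), so the 3 genes of S phase synthesis had values from -0.32 to -0.25. *RnrS* was called in 4 of 8 alternatives and not in the other 4, and in 8 of 30 fits that lacked 1 library. *CycE*, the partner of Cdk2, had -0.11 (SE 0.0779), and *dap*, the inhibitor of both, 0.11 (SE 0.0763). *E2f1* was at 0.02 (SE 0.0498) and *CycD* and *Cdk4* at -0.06 and 0.01, with 95% intervals inside a 1.5-fold change. *Rbf* had -0.15 (SE 0.0551, adjusted p = 0.0542). *Rbf* was at 46.1, 43.2, 42.8, 57.4 and 41 CPM in refed *TOR-RNAi* larvae, against 50.0, 53.3, 51.7, 51.0 and 51.1 CPM in refed controls, so that 4 of the 5 *TOR-RNAi* libraries lay below every control and 1 above.

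All 9 genes of origin licensing and the helicase had negative values in *TOR-RNAi* larvae, none of them past the threshold over both diets. The median was -0.16, and it was -0.14 when DESeq2's scaling was used. *dpa*, which encodes Mcm4, came closest: it averaged 25.7 ± 3.26 CPM in refed *TOR-RNAi* larvae and 28.5 ± 3.01 CPM in refed controls, and 26.5 ± 6.64 CPM in low-cholesterol *TOR-RNAi* larvae and 31.4 ± 2.76 CPM in low-cholesterol controls (SD, n = 5 each). Its log2 fold change was -0.21 (SE 0.0779, adjusted p = 0.0515 from edgeR). *Mcm5* had -0.22 (adjusted p = 0.0697), *Mcm7* -0.26 (adjusted p = 0.0988) and *Mcm6* -0.16 (adjusted p = 0.139), while *geminin* and *Mcm2* were at -0.10 and -0.09. The 5 G2/M genes had a median of -0.05 and the 6 mitosis genes of 0.06, with 0 called in either group. *aurA* was at 5.48, 4.50, 5.64, 8.37 and 5.81 CPM in refed *TOR-RNAi* larvae, against 4.15, 3.77, 4.30, 5.65 and 4.30 CPM in refed controls. On low cholesterol it was at 2.23, 8.46, 5.66, 10.2 and 6.31 CPM in *TOR-RNAi* larvae, against 7.98, 4.74, 6.67, 3.77 and 7.60 CPM in controls, a wide spread in both. It had the highest value of all members over both diets, 0.23 (SE 0.16, adjusted p = 0.309 from edgeR), and the testis markers, with which *aurA* varied, had a median of 0.68 in this comparison, with 0 of 17 called. The part of the testis level was not tested beyond the covariate fit.

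**Figure D4:**
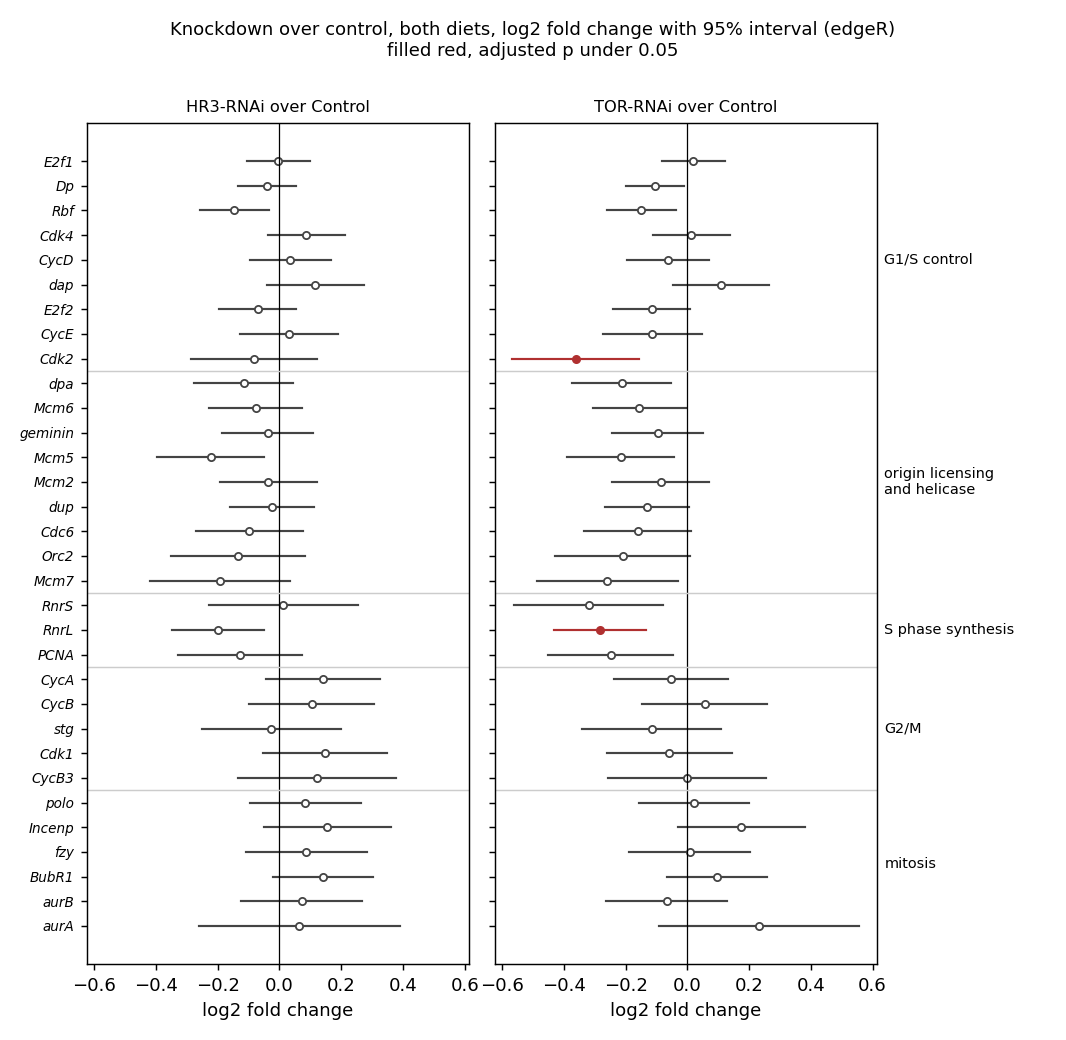
Log2 fold change over both diets of *HR3-RNAi* larvae (left) and *TOR-RNAi* larvae (right) over the same controls, for each member by role (10 libraries per genotype). Points and lines are edgeR estimates and 95% intervals, with the spread between replicates taken from all 30 libraries together. *RnrL* and *Cdk2* in *TOR-RNAi* larvae, at -0.28 and -0.36, are the filled points with an adjusted p under 0.05.

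Within diets, 1 member was called after refeeding, *Mcm7*, where 17.7% of features were, 9.79% lower and 7.93% higher. On low cholesterol 0 members were called by edgeR and 0 by DESeq2, where 3.71% of features were. At an unadjusted p under 0.05 there were 6 members after refeeding and 3 on low cholesterol, against 31.4% and 15% of features. *Mcm7* (FBgn0020633, chromosome 3L from 8891596 to 8894310, plus strand) was at 4.64, 4.05, 3.10, 4.17 and 3.20 CPM in refed *TOR-RNAi* larvae, against 5.89, 5.02, 5.64, 4.06 and 4.61 CPM in refed controls. Every group overlapped with the others. Its log2 fold change was -0.45 (SE 0.16, 95% interval -0.77 to -0.12, adjusted p = 0.0485 from edgeR). The call did not hold in a fit of these 10 libraries alone (adjusted p = 0.110), without the filter on low counts (adjusted p = 0.0623), with the testis level as a covariate (adjusted p = 0.0746), or without the 2 libraries lowest in testis markers (adjusted p = 0.0577). It was also lost, with adjusted p of 0.0524 to 0.144, on leaving out any of 11 libraries, namely refed controls 1, 2, 3 and 5, low-cholesterol control 4, low-cholesterol *HR3-RNAi* 5, refed *TOR-RNAi* 2, 3, 4 and 5, or low-cholesterol *TOR-RNAi* 3. Over all single libraries left out, 0 to 4 members and 1438 to 2776 features were called. *Mcm7* was called in 19 of these 30 fits, *Dp* and *Rbf* in 18 each and *RnrL* in 11. With all libraries these 3 lay just outside the threshold, with edgeR values on the log2 scale of -0.18 for *Dp* (adjusted p = 0.053), -0.28 for *RnrL* (adjusted p = 0.0609) and -0.21 for *Rbf* (adjusted p = 0.0631). On low cholesterol the value was -0.07 (SE 0.16), and the interaction with diet had the smallest p of all members for *TOR-RNAi*, with a difference of -0.38 (SE 0.22, unadjusted p = 0.101, adjusted p = 0.652). The annotated antisense RNA *asRNA:CR45871* covers 81.7% of the exonic bases of *Mcm7* and had 0 counts in every library. As the strand setting is not stated, this does not show how reads in the shared bases were assigned.

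The number of members called depended on how the imaginal disc level was treated. With that level as a covariate, an alternative chosen after seeing the data, 7 members were lower over both diets in *TOR-RNAi* larvae and 0 higher, where 13% of all features were lower in that fit: *RnrL* (-0.30), *Cdk2* (-0.38), *dpa* (-0.24, adjusted p = 0.00456), *Mcm5* (-0.25, adjusted p = 0.0125), *PCNA* (-0.28, adjusted p = 0.026), *Mcm6* (-0.18, adjusted p = 0.0441) and *Rbf* (-0.15, adjusted p = 0.0496). After refeeding 8 were lower, where 8.11% of features were. With the testis level as a covariate, 3 were lower over both diets, where 12.3% of features were. Without the 2 libraries lowest in testis markers, *RnrL* (-0.24, adjusted p = 0.0205) and *Cdk2* (-0.37, adjusted p = 0.0193) were still called, together with *RnrS* (-0.36, adjusted p = 0.0427), and 12.3% of features were lower.

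A wider list of 89 cell cycle genes beyond the members was examined beside them, of which 85 were tested. Refeeding called 0 of the 85 in any genotype by edgeR and 0 by DESeq2, with 2 at an unadjusted p under 0.05 in *HR3-RNAi* larvae, 1 in *TOR-RNAi* larvae and 3 in controls. In the same order, edgeR called 3.44%, 0.562% and 3.83% of all features, and 14.6%, 8.23% and 14.9% had an unadjusted p under 0.05. In *TOR-RNAi* larvae against controls over both diets, 9 of 27 further replication genes were lower and 0 higher, with a median log2 fold change of -0.21. The count of 9 lay between 6 and 13 with single libraries left out, and it was 5 without the 2 libraries lowest in testis markers and 14 with the disc covariate. Of 35 further mitosis genes 0 were lower and 1 was higher, with a median of -0.00, and of 23 further control genes 2 were lower and 2 higher. For comparison, 12.2% of all features were lower and 8.72% higher. The wider list was drawn up with results of these data known.

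*Sld5*, a subunit of the GINS complex that joins the Mcm helicase at firing origins, had the largest fall. It was at 2.76, 3.60, 2.95, 4.89 and 2.90 CPM in refed *TOR-RNAi* larvae, against 4.11, 5.02, 4.86, 5.31 and 3.65 CPM in refed controls. On low cholesterol it was at 2.48, 2.86, 2.94, 4.33 and 3.92 CPM in *TOR-RNAi* larvae, against 4.55, 4.18, 4.98, 4.49 and 5.60 CPM in controls. *TOR-RNAi* libraries were lower in both diets with 1 library reaching into the control range in each. The log2 fold change was -0.50 (SE 0.10, adjusted p = 0.00103 from edgeR). *Claspin*, a mediator of the replication checkpoint, fell by 0.44 on the log2 scale (SE 0.0903, adjusted p = 0.000849) and *Prim2*, the large primase subunit, by 0.41 (SE 0.11, adjusted p = 0.0101). The other 6 were *Psf2*, another GINS subunit, *Mcm10*, *PolA2*, the thymidylate synthase gene *Ts*, *Cdc45* and the flap endonuclease gene *Fen1*, with values from -0.38 to -0.25. Of the 9, *Sld5*, *Claspin*, *Prim2*, *Psf2* and *Mcm10* were called in each of 8 alternative fits and of 30 fits that lacked 1 library. *PolA2* was lost in 4 of 8 and 10 of 30, *Cdc45* in 3 of 8 and 10 of 30, *Fen1* in 3 of 8 and 8 of 30, and *Ts* in 1 of 8 and 0 of 30. *Prim2* was also the only gene of the list called in *HR3-RNAi* larvae over both diets (-0.53, SE 0.11, adjusted p = 0.00274), against the same controls.

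Among the control and mitosis genes, *fzr*, which encodes the Cdh1 activator of the anaphase-promoting complex and is required for entry into the endocycle in flies, rose in *TOR-RNAi* larvae. It was at 25.9, 24.3, 29.8, 22.6 and 25.4 CPM in refed *TOR-RNAi* larvae, against 21.4, 23.2, 20.1, 19.1 and 22.1 CPM in refed controls, and at 21.3, 25.1, 25.1, 28.3 and 23.8 CPM on low cholesterol, against 21.2, 19.5, 19.0, 19.2 and 22.8 CPM in low-cholesterol controls. In each diet 1 *TOR-RNAi* library lay within the control range. The log2 fold change was 0.26 (SE 0.0471, adjusted p = 0.000244 from edgeR). *cnn*, which encodes the centrosome protein Centrosomin, had a log2 fold change of 0.44 (SE 0.12, adjusted p = 0.0109 from edgeR). It was at 26.8, 22.1, 28.2, 34.5 and 25.7 CPM in refed *TOR-RNAi* larvae, against 15.4, 16.5, 18.0, 24.8 and 13.4 CPM in refed controls. On low cholesterol it was at 14.4, 35.7, 20.7, 39.2 and 29.2 CPM in *TOR-RNAi* larvae, against 33.0, 20.3, 21.3, 14.4 and 24.9 CPM in controls, with the lowest of these *TOR-RNAi* values in the library lowest in testis markers. Testis markers had a median of 0.68 over both diets and of 1.02 after refeeding in this comparison. With the testis level as a covariate, *cnn* had 0.32 over both diets (adjusted p = 0.00179) and 0.32 after refeeding (adjusted p = 0.0342). *ago*, the F-box protein that targets Cyclin E for degradation, had a log2 fold change of 0.13 (SE 0.0430, adjusted p = 0.0315), a call lost in 2 of 8 alternatives and in 9 of 30 fits that lacked 1 library. *Skp2*, another F-box gene, fell by 0.29 on the log2 scale (SE 0.0628, adjusted p = 0.00141) and *mip120*, a subunit of the Myb complex, by 0.20 (SE 0.0627, adjusted p = 0.0232), which was lost in 1 of 8 alternatives.

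**Figure D5:**
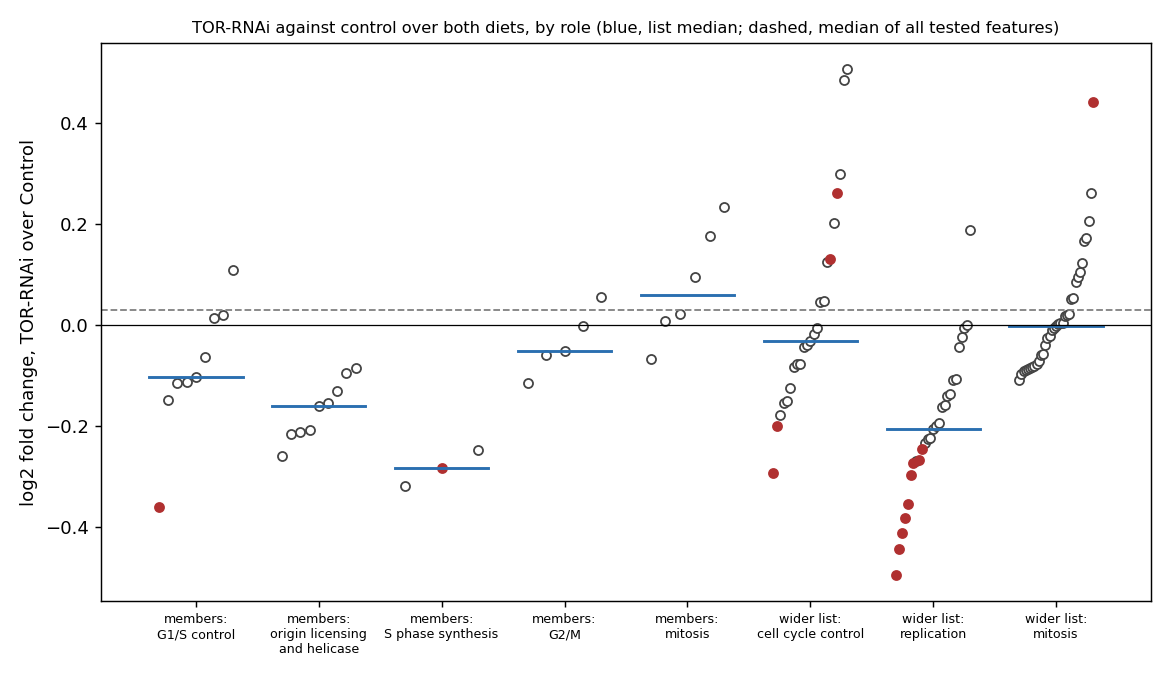
Log2 fold change of *TOR-RNAi* larvae over controls, over both diets, for the members by role and for the wider list (1 point per gene; filled red, adjusted p under 0.05 from edgeR). Blue bars are list medians, from -0.28 for S phase synthesis to 0.06 for mitosis among the members, and the dashed line is the median of all tested features, 0.03.

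Within diets, *TOR-RNAi* larvae against controls had 6 of the 27 further replication genes lower and 0 higher after refeeding, and 3 lower and 0 higher on low cholesterol. Of all features 9.79% were lower and 7.93% higher after refeeding, and 3.71% were called on low cholesterol. After refeeding the largest falls were in *Prim2* (-0.56, adjusted p = 0.0157 from edgeR), *Psf2* (-0.52, adjusted p = 0.013) and *Sld5* (-0.48, adjusted p = 0.0239), and *cnn* (0.59, adjusted p = 0.0198), *cal1*, a centromere factor (0.31, adjusted p = 0.0474), and *fzr* (0.22, adjusted p = 0.0199) were higher. The call of *cal1* was lost in 7 of 8 alternatives and in 23 of 30 fits that lacked 1 library, that of *fzr* in 1 and 6, those of *Sld5* and *cnn* in 1 and 2 each, and that of *Prim2* in 1 and 1. The alternative that lost *cnn* was the disc covariate (adjusted p = 0.0544). On low cholesterol *Sld5* (-0.52, adjusted p = 0.0413), *Claspin* (-0.46, adjusted p = 0.0394) and *RPA1*, a single-strand DNA binding subunit (-0.22, adjusted p = 0.0359), were lower and *fzr* (0.30, adjusted p = 0.00722) was higher. The call of *fzr* was made in all of these fits, while that of *RPA1* was lost in 2 of 8 alternatives and 20 of 30 fits, *Sld5* in 4 and 13, and *Claspin* in 2 and 7. The count of replication genes after refeeding was 1 in a fit of these 10 libraries alone and 1 without refed *TOR-RNAi* 3. On low cholesterol it was 0 without the 2 libraries lowest in testis markers, without any one of low-cholesterol controls 2, 3, 4 and 5, and without low-cholesterol *TOR-RNAi* 1, 2 or 3, and 1 without the filter on low counts, in the fit of those 10 libraries alone, and without refed control 3, refed *HR3-RNAi* 3, 4 or 5, or low-cholesterol *HR3-RNAi* 4. For *HR3-RNAi* the list had 0 of 85 genes called by edgeR on either diet, with 8 at an unadjusted p under 0.05 after refeeding and 4 on low cholesterol. Of all features 3.97% were called after refeeding and 2.61% on low cholesterol, and 16.8% and 12.5% had an unadjusted p under 0.05. DESeq2 called *Prim2* on both diets and *Skp2* after refeeding.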

How the data were processed

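Read counts and FPKM of 17713 features, 155 of them unannotated loci, were deposited for 30 libraries. The deposited counts are the authors' raw reads per gene, and the deposited FPKM are their counts scaled by length and library size. Per the labels, CASAVA, HISAT2, StringTie, featureCounts, DESeq2 and edgeR were used, without versions. The genome build, annotation and strand setting are not given in the sources used here. CPM printed here are counts divided by the library total, without TMM, and scaled by 1000000.

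Counts were tested with edgeR 4.0.16 in R 4.3.3 (filterByExpr, TMM normalization, quasi-likelihood F-test, Benjamini-Hochberg adjustment over all features, threshold 0.05). Diet was tested in the 10 libraries of each genotype, and genotypes and interactions in 1 fit of 30 libraries. Replicates are separate pools of 5 larvae per the labels, and p-values measure the spread between them. Total counts of 19744564 to 33510753 put 3 counts at 0.0895 to 0.152 CPM. Alternatives were DESeq2 1.42.0, its size factors, no filter, a replicate block, covariates, other sets of libraries and each library left out. The code was tested on simulated counts with known changes. Relations with markers were tested by 100000 permutations within groups (scipy 1.17.1).

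The members, lists and role groups were chosen with earlier results of these data known. Values per library are given for members called, up to 5 in each direction per genotype comparison, and for the interaction member with the smallest p. They are also given for others chosen after their values were seen (*RnrS* on refeeding, *dup*, *Rbf*, *Cdk1* and *aurA*, and *Sld5*, *fzr* and *cnn* of the wider list). From the wider list, up to 3 genes per direction and comparison with the largest change were named, and the remaining called genes of the comparison over both diets were added. Coordinates and overlaps are from the Ensembl 115 BDGP6 annotation. Promoter sequences were not analysed here.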

Additional observations from a re-analysis of the deposited data

Results flagged for a closer look

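In 17 of 192 groups of 5 libraries (8.85%), 1 library's CPM lay apart from the other 4. This was judged by its gap to the nearest as a share of the group's range. The cutoff passes about 1 in 20 groups of independent normal values. Members varied together and several flags fell in the same library, so an excess over chance cannot be read from this share. In refed *HR3-RNAi* larvae, replicate 4 was high for *CycA* (42.5 CPM, others 34.1 to 34.4), *Incenp* (30.5 CPM, others 20.4 to 22.6) and *dpa* (34.4 CPM, others 26.2 to 27.0), and replicate 1 was low for *Rbf* (40.0 CPM, others 44.9 to 46.7). In low-cholesterol *HR3-RNAi* larvae, replicate 3 was low for *geminin* (14.9 CPM, others 21.4 to 23.5) and *PCNA* (26.4 CPM, others 36.9 to 40.3), and replicate 1 was high for *E2f1* (118.8 CPM, others 93.3 to 99.5). In refed *TOR-RNAi* larvae, replicate 3 was low for *Mcm6* (19.9 CPM, others 24.8 to 26.4), *RnrS* (53.2 CPM, others 77.0 to 86.2) and *CycB* (23.3 CPM, others 27.5 to 29.2), and replicate 4 was high for *E2f2* (22.4 CPM, others 13.7 to 15.4). In low-cholesterol *TOR-RNAi* larvae, replicate 4 was high for *Cdk4* (23.8 CPM, others 17.2 to 18.7) and *Mcm7* (6.80 CPM, others 3.88 to 4.49). Among refed controls, replicate 1 was high for *E2f2* (18.7 CPM, others 15.4 to 16.3) and replicate 4 for *aurA* (5.65 CPM, others 3.77 to 4.30). Among low-cholesterol controls, replicate 2 was low for *Mcm6* (26.3 CPM, others 29.3 to 30.1) and *PCNA* (36.5 CPM, others 42.0 to 43.5).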

How the results depend on the processing

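The 0 calls among members on refeeding in each genotype, for *HR3-RNAi* against control on low cholesterol and for both interactions stayed at 0 under every alternative run, each single library left out included. For *HR3-RNAi* against control over both diets, the count of 0 became 3 in the fit of those libraries alone, 1 with the testis covariate and 2 with the imaginal disc covariate, and lay between 0 and 2 with single libraries left out. After refeeding it became 4 and 1 under the first 2 of these, and lay between 0 and 1. The fits of those libraries alone called 11.4% of all features over both diets and 11% after refeeding. With single libraries left out, 751 to 1215 features were called over both diets and 332 to 670 after refeeding. For *TOR-RNAi* over both diets, the count of 2 lay between 2 and 7 over 8 alternatives, with 7 from the imaginal disc covariate. *RnrS* was called in 4 of the 8 and *Rbf* in 2. Single libraries left out gave 2 to 7. In the disc covariate fit 13% of all features were lower, and single libraries left out gave 2180 to 3064 called features. On low cholesterol that covariate gave 1, *Incenp*, higher in *TOR-RNAi* larvae. After refeeding the count of 1 became 2 with DESeq2 size factors, 0 without the filter, 0 in the fit of these 10 libraries alone, 3 with DESeq2 and 8 with the disc covariate, and lay between 0 and 4 with single libraries left out. The disc covariate fit called 8.11% of all features as lower, and 1438 to 2776 features were called with single libraries left out. The cause of these changes in the member counts was not tested. The disc covariate and the fit without the 2 libraries lowest in testis markers were chosen after seeing the data. Replicate numbers did not pair the samples: same-numbered refed and low-cholesterol libraries correlated between -0.32 and 0.25. With the replicate block, 3 members were called for *TOR-RNAi* over both diets, 1 after refeeding and 0 in every other comparison. For comparison, the main fit called 20.9% of all features for *TOR-RNAi* over both diets, 17.7% after refeeding and 3.71% on low cholesterol. For *HR3-RNAi* it called 7.53% over both diets and 3.97% after refeeding. Where an alternative is given here without its own share of features, its count of members is not read as a result about them. *Mcm7*, with 67 to 168 counts per library, was the member with the lowest FPKM. That level depends on how reads in the bases shared with its antisense RNA were counted, which is not stated.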
